A study of Homo sapiens with 12 samples.

Results

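Gene expression with a tRNA-Gly gene vector was compared with an empty vector in 293T cells, a human embryonic kidney line that carries the SV40 large T antigen. The comparison rests on 8 of the 12 arrays of the study, those whose titles name the tRNA vector (4 arrays) or the empty vector (4 arrays), each from a separate biological replicate. The tRNA vector carries the human gene chr1.tRNA68-Gly(GCC). The control cells received an empty control vector, and a CU1276 hairpin vector gave the other 4 arrays. Cells of all groups had been transfected transiently by polyethylenimine and were collected 48 hours later, so every array comes from transfected cells, and 12 µg of total RNA per sample was labelled with biotin. The labels name neither the promoter of the vectors nor the share of cells that took up plasmid.

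Transfer RNAs carry amino acids to the ribosome, and the GCC anticodon of this tRNA reads glycine codons. Fragments cut from tRNAs form a class of small RNAs, and some of them bind Argonaute proteins and lower target messages as microRNAs do. CU1276, which the labels describe as a product of this tRNA, is such a fragment, known from B cells, and RPA1 is the message that the study is known to link to it. RPA1, RPA2 and RPA3 are the subunits of replication protein A, which coats single-stranded DNA in replication and repair. The RefSeq gene table lists 13 tRNA-Gly genes with this anticodon. The arrays had 0 probe sets annotated to a tRNA gene, so the amount of tRNA or of CU1276 made from the vector was not measured here.

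The values are MAS5 signals, a linear intensity for each probe set and the 2% trimmed mean of every deposited array was 500.1. The median signal was 89.1 ± 8.31 in tRNA vector arrays and 89.9 ± 4.98 in empty vector arrays (SD, n = 4 each, exact permutation p = 0.857, two-sided). GAPDH probes at the 3′ end were 1.36 ± 0.129 times as bright as those at the 5′ end with the tRNA vector, and 1.33 ± 0.125 times with the empty vector (SD, n = 4 each, exact permutation p = 0.8), a reading that tracks RNA integrity. RNAs of Bacillus genes, put into samples as controls, averaged 1726 in tRNA vector array 1 and 1834 in empty vector array 1. They averaged 335 in tRNA vector array 2 and 331 in empty vector array 2, and at most 26.1 in every array numbered 3 or 4. Each level therefore held equal numbers of tRNA vector and empty vector arrays. Log2 signals correlated at r = 0.931 to 0.958 over the 16 pairs of arrays from different groups and at 0.932 to 0.955 over the 12 pairs from the same group, across probe sets, which are not independent of each other.

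The arrays carried the transcripts typical of 293T cells. NEFL, a neurofilament gene, had a signal of 2818 ± 81.6 with the tRNA vector and 2695 ± 313 with the empty vector, and NEFM, its partner, 4850 ± 646 against 4374 ± 612 in empty vector arrays (SD, n = 4 each). HOXD10 stood at 2787 ± 248 with the tRNA vector and 2954 ± 238 with the empty vector, and SIX2 at 953 ± 47.7 and, with the empty vector, 1017 ± 27.2. PAX2, a kidney transcription factor, was dim at 134 with the tRNA vector and 123 with the empty vector, and LHX1 did not reach the filter on dim probe sets. Of markers of other cells, 6 of 14 for B cells, 5 of 15 for T and myeloid cells, 8 of 11 for fibroblasts, 4 of 12 for differentiated epithelia and 5 of 10 for erythroid cells reached it, while MS4A1, BLK, CD3E and PTPRC did not. The brightest of these were ACTA2 at 2202 with the tRNA vector and 2448 with the empty vector, COL1A1 at 770 with the tRNA vector and 838 with the empty vector, and EPOR at 466 with the tRNA vector and 596 with the empty vector. BCL6 stood at 363 with the tRNA vector and 338 with the empty vector, and CDH1 at 286 with the tRNA vector and 263 with the empty vector. Of the 12 measured markers of 293T cells, 9 were higher and 3 lower with the tRNA vector, with a median log2 fold change of 0.10.

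A log2 fold change here is the tRNA vector minus the empty vector, and the value after ± is its standard error from limma, a linear model fitted to all tested probe sets with 4 arrays per group. No probe set passed. At a Benjamini-Hochberg adjusted p under 0.05, limma called 0 of 32768 tested probe sets (0%), and the smallest adjusted p was 1. At an unadjusted p under 0.05 there were 1238 probe sets (3.78%), 559 higher (1.71%) and 679 lower (2.07%) with the tRNA vector. All 4 tRNA vector arrays lay outside the range of the empty vector arrays in 851 probe sets (2.6%). With each gene taken by its brightest tested probe set, 174 of 13952 genes lay above it in this way (1.25%) and 236 below it (1.69%). These shares are the background for every count of genes that follows.

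The spread among replicates limited how precisely the brightest probe set of each gene was measured. The fit reported does not use the replicate number, so spread shared by arrays of the same number stays in the standard errors and intervals given here. The 95% intervals hold for each gene singly, not for all genes together. Other probe sets of a gene can differ by more. Over the 13952 genes the median log2 fold change was 0.0030, 50.7% of genes were above 0 and 49.3% below it, and the 5th and 95th percentiles were -0.49 and 0.43. The median standard error was 0.16, which gives a 95% interval of 0.34 to either side. For 11061 genes (79.3%) the whole 95% interval lay within 2-fold either way, and for 8504 it lay within 1.5-fold. This share depended on signal. It was 13.1% in the dimmest of 5 equal bins of genes, with a median signal of 66.8, 84.9% in the next, and 98.9% to 99.96% in the 3 brightest bins. A log2 fold change beyond 1 either way was seen in 292 genes, 118 higher and 174 lower, whose median signal was 56.4 against 633 for all genes. Of these 292 genes, 37 had groups that did not overlap. 

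**Figure D1:**
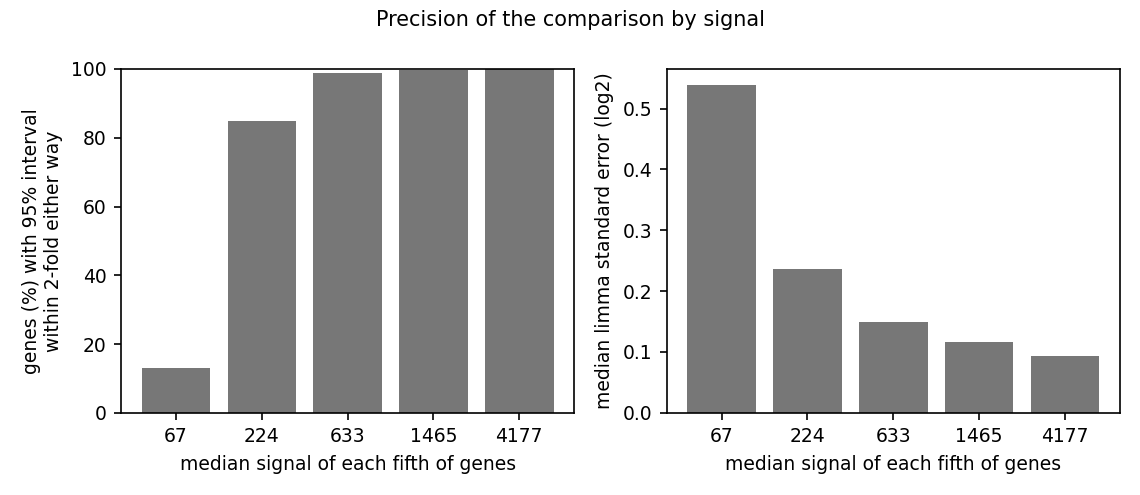
Bars show, for 5 equal bins of the 13952 genes ordered by signal, the share of genes whose 95% interval of the fold change lies within 2-fold either way (left, percent) and the median limma standard error on the log2 scale (right). The share climbs from 13.1% in the dimmest bin to 99.96% in the brightest.

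**Figure D2:**
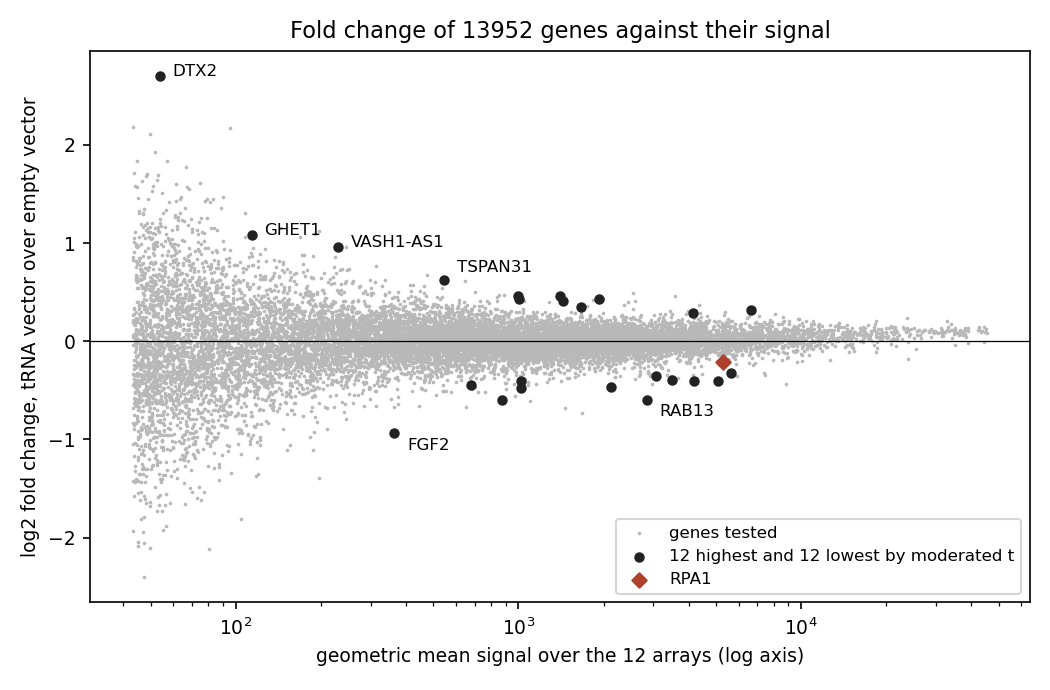
Each grey point is 1 of 13952 genes, with its geometric mean signal over the 12 arrays (log axis) and its log2 fold change, tRNA vector over empty vector. Dark points are the 12 genes with the highest and the 12 with the lowest moderated t, and the diamond is RPA1, at -0.21. The spread narrows as signal grows, and DTX2 stands highest at 2.70.

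RPA1 was the first gene of interest, as the message linked to CU1276. Its brightest probe set read 5177, 4662, 5452 and 4951 in the tRNA vector arrays, against 6297, 5662, 5898 and 5587 in the empty vector arrays. All tRNA vector arrays lay below all empty vector arrays. The mean signal was 5061 ± 335 with the tRNA vector and 5861 ± 319.6 with the empty vector (SD, n = 4 each), a log2 fold change of -0.21 ± 0.082 and a fold of 0.863, with a 95% interval of -0.39 to -0.038. The exact permutation p of this single value was 0.0286, the smallest that 4 against 4 arrays allow, while the limma adjusted p over all probe sets was 1. The difference was -0.28 in the arrays numbered 1, -0.28 in those numbered 2 and -0.14 in those numbered 3 and 4. RPA1 was measured by 2 more probe sets, and these ran the other way. The next brightest read 3689, 4764, 5058 and 4340.1 with the tRNA vector, against 3299, 4251, 4970.0 and 4784 with the empty vector, so the groups overlapped (0.053 ± 0.13). The third was dim, at 149.8 ± 29.6 with the tRNA vector and 139 ± 15.7 with the empty vector, and gave 0.094 ± 0.25. Averaged over its 3 probe sets, RPA1 differed by -0.022.

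The other subunits had values near 0, and the difference between them and RPA1 was not tested. RPA2 had signals of 5921 ± 319.9 with the tRNA vector and 5989 ± 628 with the empty vector (SD, n = 4 each), a log2 fold change of -0.012 ± 0.081 with a 95% interval of -0.19 to 0.16. RPA3 had signals of 11639 ± 409 with the tRNA vector and 11919 ± 1544 with the empty vector, a log2 fold change of -0.026 ± 0.089 with a 95% interval of -0.22 to 0.16. Its empty vector array numbered 1, at 14209.8, stood above the other 3, at 10839.8 to 11336, and without that array the value was 0.061.

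**Figure D3:**
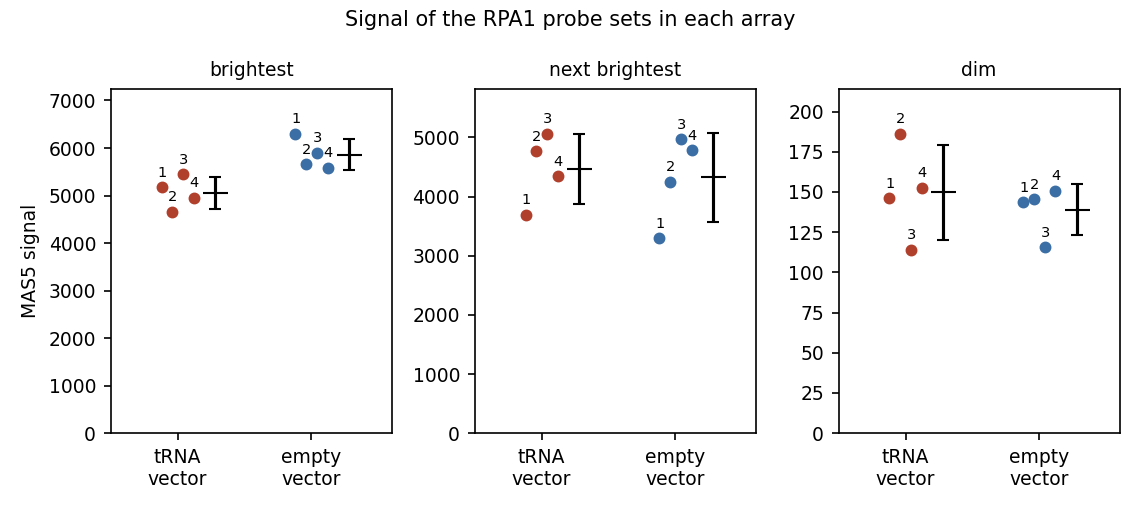
MAS5 signal of the 3 RPA1 probe sets in each array, with tRNA vector arrays on the left of each panel and empty vector arrays on the right. Points carry the replicate number, and the bar gives the mean and SD of 4 arrays. Only the brightest probe set, at 5061 ± 335 with the tRNA vector and 5861 ± 319.6 with the empty vector, separates the groups.

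Among the 12 genes with the highest moderated t, 11 had tRNA vector arrays that all lay above the empty vector arrays, with log2 fold changes of 0.29 to 2.70. Since the genes were ranked by this contrast, the count describes them and tests nothing. DTX2, a ubiquitin ligase that regulates Notch signalling, had the largest difference. Its signal was 78.8, 182, 125 and 180.3 with the tRNA vector, against 25.2, 19.9, 27.5 and 13.0 with the empty vector, all of which lie under the filter signal of 43.3, so the gene passed the filter through its tRNA vector signals. The log2 fold change was 2.70 ± 0.53, from a single probe set (limma adjusted p = 1, unadjusted 0.000144). GHET1, a long noncoding RNA, read 166, 174, 157 and 179 with the tRNA vector, against 84.8, 65.9, 86.4 and 82.8 with the empty vector (1.09 ± 0.26). VASH1-AS1, an antisense RNA beside VASH1, read 253, 355, 312 and 338 with the tRNA vector, against 177, 133, 194 and 146 with the empty vector (0.96 ± 0.24). These 3 transcripts are dim, and no other tested probe set covers them.

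Brighter genes at this end differed by less. TSPAN31, a tetraspanin, is covered by a pair of probe sets and was higher in both, at 709 ± 92.2 with the tRNA vector and 459 ± 33.9 with the empty vector in the brighter one (0.62 ± 0.14) and by 0.52 ± 0.16 in the other. TBL1X, a subunit of the NCoR corepressor complex, stood at 2348, 2506, 2090.1 and 2336 with the tRNA vector, against 1733, 1692, 1640.5 and 1800.2 with the empty vector (0.43 ± 0.094), a direction that 2 of its 4 other probe sets shared. CUTA, which helps to anchor acetylcholinesterase at membranes, stood at 4586, 4704, 4839.8 and 4512 with the tRNA vector, against 4069, 3711, 3693 and 3806 with the empty vector (0.29 ± 0.070). The groups did not overlap in the brightest probe set of any of these. LZTR1, an adaptor that brings RAS proteins to a cullin ubiquitin ligase, gave 0.46 ± 0.12, and ZNRD2 and LDOC1 gave 0.43 ± 0.11 and 0.41 ± 0.11. PAGR1, a partner of histone methyltransferase complexes, gave 0.34 ± 0.094, and MRPS18C, a protein of the mitochondrial ribosome, 0.31 ± 0.084. CENPH, a kinetochore protein, was the 1 gene of the 12 whose groups overlapped, at 1665 ± 157 with the tRNA vector and 1217 ± 217 with the empty vector (0.46 ± 0.13). The limma adjusted p of all 12 was 1.

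Among the 12 genes with the lowest moderated t, all 12 had tRNA vector arrays below every empty vector array, with log2 fold changes of -0.94 to -0.33 and a limma adjusted p of 1. RAB13, a small GTPase that directs vesicles to cell junctions and the leading edge, had the smallest unadjusted p, 6.71e-05. Its signal was 2126, 2261, 2538 and 2401 with the tRNA vector, against 3832, 3716, 3141 and 3427 with the empty vector (-0.60 ± 0.11), with no other probe set. DCTN4, a subunit of dynactin, the partner of the dynein motor, read 4525, 4085, 4071 and 4253 with the tRNA vector, against 4934, 5979, 5694 and 5785 with the empty vector (-0.40 ± 0.078). Of its 2 other probe sets 1 pointed the same way. CAMSAP2, which holds the minus ends of microtubules, read 1767 ± 224 with the tRNA vector and 2426 ± 105 with the empty vector (-0.46 ± 0.096), and 2 of 2 other probe sets agreed in sign. RAB13, DCTN4 and CAMSAP2 were placed on the same gene list. RAB5B (-0.28 ± 0.11) was the fourth of 37 measured genes of vesicle transport and dynactin whose arrays lay below without overlap (1.69% of all genes did so). Of the 37 genes, 22 were higher, with a median of 0.015. That list was drawn up with RAB13, DCTN4 and CAMSAP2 known to be low, so the count is no independent observation.

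FGF2, the basic fibroblast growth factor, was the lowest of the 12 in fold. It read 168, 241, 249.7 and 306 with the tRNA vector, against 447, 600.2, 370.4 and 417 with the empty vector, a log2 fold change of -0.94 ± 0.23, and its other probe set was lower too. CIRBP, an RNA-binding protein induced by mild cold, stood at 3602, 3026, 3465 and 3676 with the tRNA vector, against 4842, 4131, 4549 and 4677 with the empty vector (-0.40 ± 0.080), yet 1 of its 4 other probe sets shared the direction. LRRC58 gave -0.40 ± 0.081. RYBP, a subunit of Polycomb repressive complexes, gave -0.35 ± 0.085, a sign that 2 of its 3 other probe sets shared. COPS9, a small subunit of the COP9 signalosome that removes NEDD8 from cullins, stood at 4863 ± 415 with the tRNA vector and 6088 ± 244 with the empty vector (-0.33 ± 0.083). TTC9C gave -0.48 ± 0.12, and LNX2, a ubiquitin ligase that binds Numb, -0.40 ± 0.10. The remaining pair, SPATA18 and TP53I3, are targets of p53 and are described with them.

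**Figure D4:**
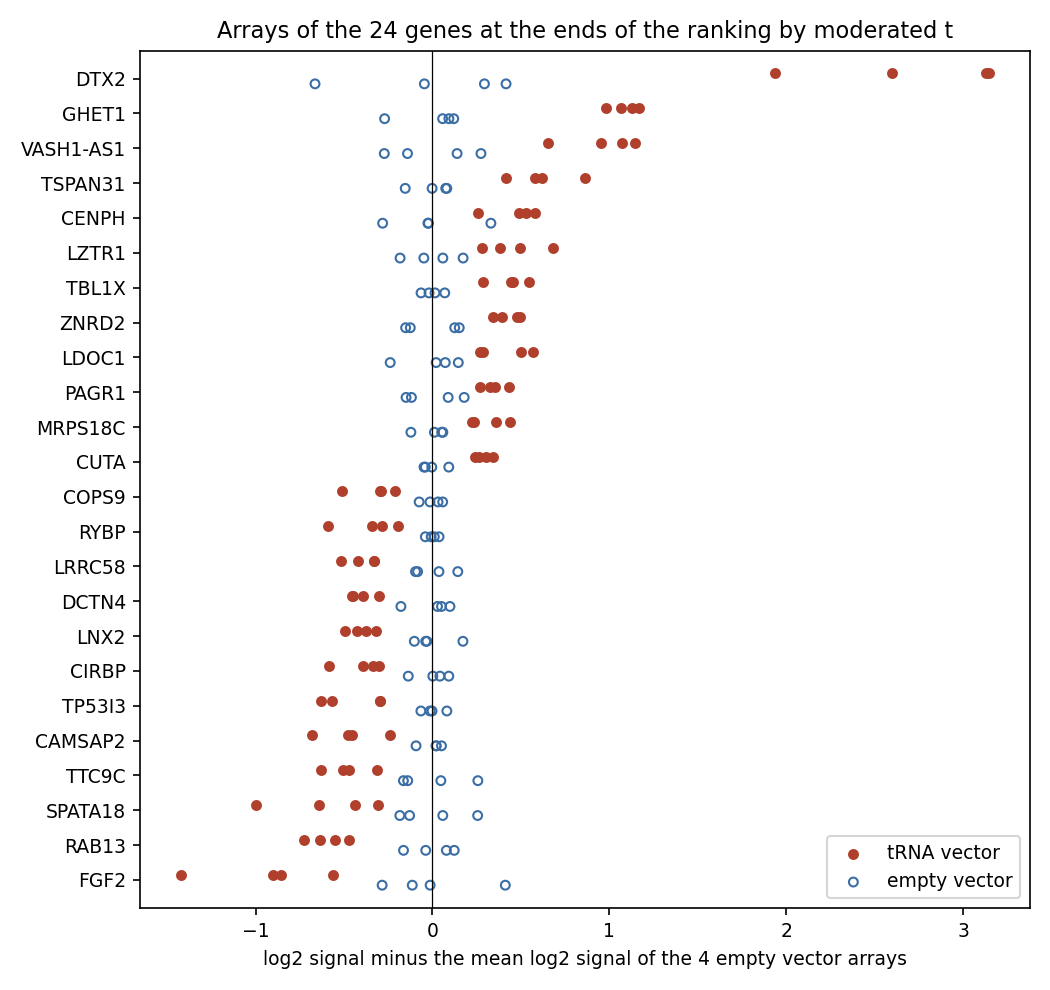
Log2 signal of each array minus the mean of the 4 empty vector arrays, for the 12 genes with the highest and the 12 with the lowest moderated t. Filled points are tRNA vector arrays and open points empty vector arrays. CENPH is the gene whose groups overlap, and DTX2 lies farthest from 0, at a mean of 2.70.

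Few genes had several probe sets with a small p on the same side. A gene was counted when at least 2 of its probe sets had an unadjusted p under 0.05 in 1 direction and none had the opposite sign, which held for 5 genes higher (0.0713% of 7011 genes with 2 or more probe sets) and 6 lower (0.0856%). The higher ones were TSPAN31, SCARB1, FER, SLC25A11 and DHRS2. SCARB1, the receptor for high-density lipoprotein, gave 0.21 ± 0.097 in its brightest probe set, at 1705 ± 91.5 with the tRNA vector and 1483 ± 182 with the empty vector, and up to 1.20 in a dim one. FER, a tyrosine kinase, gave 0.29 ± 0.12, SLC25A11, the mitochondrial carrier of oxoglutarate and malate, 0.33 ± 0.14, and DHRS2, a dehydrogenase, 0.45 ± 0.19. TSPAN31 and FER had groups that did not overlap in the brightest probe set, and the other 3 had groups that did.

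The 6 lower genes were NPL, ZNF654, PMS2P3, DTX2P1-UPK3BP1-PMS2P11, NSD3 and SPATA7. NPL, an enzyme of sialic acid breakdown, was lower in 4 of 4 probe sets. Its brightest read 233, 254, 257 and 234 with the tRNA vector, against 417, 394, 287 and 284 with the empty vector (-0.48 ± 0.16), without overlap. ZNF654, a zinc finger gene, was lower in 6 of 6 probe sets, with log2 fold changes of -0.59 to -0.0043. Its brightest gave -0.45 ± 0.16, with overlap. In the probe set with the lowest value it read 760.1, 621, 731 and 703 with the tRNA vector, against 1095, 907, 1066 and 1165 with the empty vector (-0.59 ± 0.13). NSD3, a histone methyltransferase, was lower in 6 of 6, but its brightest probe set was close to 0 (-0.0040 ± 0.14) and only the dimmer ones reached -0.57. SPATA7 gave -0.27 ± 0.13 and -0.40 ± 0.16. PMS2P3 and DTX2P1-UPK3BP1-PMS2P11 are near-identical copies of other genes, and probes can be shared with them, so their values of -0.33 ± 0.12 and -0.36 ± 0.13 cannot be given to 1 locus.

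When the 3 levels of the Bacillus control RNAs were entered as a block, limma called 4 probe sets, all lower, each with an adjusted p of 0.0488. With the replicate number as the block, the limma adjusted p of all 4 was 0.0842, so none was called. CUL4B, a scaffold of ubiquitin ligases, read 1653, 1597, 1883 and 1992 with the tRNA vector, against 2425, 2499, 3216 and 2878 with the empty vector (-0.63 ± 0.15 without the block), and 3 of 3 other probe sets agreed in sign. This was not the brightest CUL4B probe set, which gave -0.025 ± 0.10, and the mean over its probe sets was -0.26. BEX1, an adaptor of neurotrophin signalling, read 1016, 852, 783 and 842 with the tRNA vector, against 1688, 1496, 1111 and 1106 with the empty vector (-0.61 ± 0.18). The others were the ZNF654 probe set above and 1 that is listed with no gene, at 760.5 ± 54.5 with the tRNA vector and 1186 ± 191 with the empty vector (-0.63 ± 0.13). Without the block the groups did not overlap in any of the 4. Earlier results of these data had shown that this block gives calls.

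Gene lists for 31 pathways, which together hold 1006 measured genes of 1187 with the marker lists, were described by their counts and medians. No member of any list passed limma after adjustment over all probe sets, and 25 of the 31 medians lay within 0.05 of 0. The p53 targets and the ribosomal and mitochondrial lists had the medians farthest from 0.

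Of 28 measured targets of p53, the tumour suppressor that the SV40 large T antigen binds in these cells, 21 were lower and 7 higher, with a median log2 fold change of -0.096 against 0.0030 for all genes. Earlier results had shown this list to be low, so its direction is no independent observation. The medians by replicate number were -0.10, -0.093, -0.063 and -0.14. Groups did not overlap in 5 of the 28 on the lower side (1.69% of all genes did so) and 1 on the higher side (1.25%). SPATA18, which acts in mitochondrial quality control, read 868, 538, 688 and 795 with the tRNA vector, against 1283, 946, 983 and 1119 with the empty vector (-0.60 ± 0.15). TP53I3, a quinone oxidoreductase, read 506, 486, 612 and 611 with the tRNA vector, against 718, 744, 750.4 and 795 with the empty vector (-0.45 ± 0.12). Both were below every empty vector array, with a limma adjusted p of 1. The other members without overlap, named after their values were seen, were ZMAT3 (-0.34 ± 0.12), AEN (-0.25 ± 0.082) and GADD45A (-0.20 ± 0.081) on the lower side and the kinase PLK3 (0.70 ± 0.28) on the higher side. The 2 other PLK3 probe sets pointed the other way.

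Cytosolic ribosomal proteins, which build the ribosome, were higher in 50 of 53 measured genes, with a median of 0.10 (50.7% of all genes were higher). The 3 lower ones were RPS14 (-0.034 ± 0.13), RPL27A (-0.21 ± 0.36) and RPLP2 (-0.051 ± 0.60), the last pair through dim probe sets. A list direction already seen in earlier results of these data, it was not the same at each replicate number. The medians were -0.17 in the arrays numbered 1, 0.32 in those numbered 2, and 0.11 and 0.14 in those numbered 3 and 4. Without the arrays numbered 1, a choice made after seeing the data, 52 of 53 were higher (median 0.18), without tRNA vector array 2, 31 of 53 (median 0.012), and after quantile normalization 32 of 53 (median 0.0074). Messages of ribosomal proteins are among the brightest on the arrays, and other genes of like brightness had like values. Of 16 other genes at or above the median signal of the list (32873), 14 were higher, with a median of 0.10 and medians by replicate number of -0.18, 0.33, 0.085 and 0.14. Of 317 other genes with a signal over 10000, 260 were higher (82.0%, median 0.062). How much of the list's median follows from this brightness was not tested.

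Most messages of ribosomal proteins begin with a C followed by an unbroken run of C and T, the terminal oligopyrimidine start through which their translation is controlled by mTOR. The starts of 4 tested genes with such a run are shown, because the run is the sequence that most of the family has in common. The choice went by unadjusted p among the tested genes with the run, with genes of a single chromosome left out, so those may have smaller values. Capitals mark the run from the annotated first base of the gene, and 15 bases lie on either side of the start (RefSeq, GRCh38.p14, chr19:54200843-54200872 on the plus strand, chr20:62387088-62387117 on the plus strand, chr19:5690280-5690309 on the plus strand and chr19:48619164-48619193 on the minus strand).
RPS9: gtggcgcttccgcgcCTCTTTCTCagtgac
RPS21: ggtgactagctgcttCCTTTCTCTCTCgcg
RPL36: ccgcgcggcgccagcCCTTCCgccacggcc
RPL18: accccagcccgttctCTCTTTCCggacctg
A start of C with at least 4 further letters C or T, read on the gene's own strand, was found in 33 of 47 ribosomal protein genes with a promoter entry (70.2%) and in 4.04% of all 27305 promoters of the table.

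RPS9, a protein of the small subunit, read 17802, 20169.6, 19763 and 20123 with the tRNA vector, against 17962, 16589, 17662 and 16883 with the empty vector (0.17 ± 0.063), with overlap only through tRNA vector array 1. RPS21, also of the small subunit, read 32172, 39323, 37293 and 34747 with the tRNA vector, against 30307, 31593, 30454 and 31564 with the empty vector (0.21 ± 0.10), without overlap, though its other probe set had the opposite sign. RPL36 of the large subunit read 26814, 28087.7, 28742.9 and 28648.3 with the tRNA vector, against 26417.8, 25117.2, 26058.1 and 25814.7 with the empty vector (0.12 ± 0.067, no overlap). RPL18, also of the large subunit, gave 0.12 ± 0.083, and its groups overlapped. Within the family, the 33 genes that have the start had a median of 0.10 (30 higher), and the 14 that lack it a median of 0.088 (14 higher). Outside the family, 531 genes with such a start had a median of 0.014 and 10642 genes without it a median of 0.0039. These are descriptions and were not tested.

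Nuclear genes of the mitochondrion had the next highest medians. Of 68 genes of the respiratory chain and ATP synthase, 54 were higher, with a median of 0.080 and medians by replicate number of -0.043, 0.10, 0.15 and 0.10. NDUFV1, which holds the NADH site of complex I, read 4385, 5060.1, 5502 and 5428 with the tRNA vector, against 3598, 4641, 4014 and 3567 with the empty vector (0.37 ± 0.12), and the groups overlapped. NDUFA10, another complex I subunit, gave 0.21 ± 0.076 without overlap, as did UQCRC1, a complex III core protein (0.18 ± 0.075), and COX7C, a small part of complex IV (0.16 ± 0.076), which were named after their values were seen. Of the 2 other NDUFA10 probe sets, 1 shared its sign. Of 70 proteins of the mitochondrial ribosome 57 were higher, with a median of 0.067, and the 4 medians by replicate number were 0.0054, 0.069, 0.099 and 0.058. MRPL14 stood at 3696 ± 213 with the tRNA vector and 3218 ± 149.9 with the empty vector (0.20 ± 0.073, no overlap), and MRPL23 at 6161 ± 434 and, with the empty vector, 5279.9 ± 432 (0.22 ± 0.085). Without the arrays numbered 1, 58 of 68 and 61 of 70 were higher in these lists, and after quantile normalization 47 and 52. In the limma fit 0 members of either list passed. Of all genes 50.7% were higher. Geometric mean signals per array were 6774 to 7649 for the respiratory chain list and 3538 to 3955 for the mitochondrial ribosome list. The 317 bright genes set beside the cytosolic ribosomal proteins, of which 82.0% were higher, all had a signal over 10000. They are therefore not of like brightness. The brightest of the 5 equal bins of genes, from a signal of 2295 upward, had a median of 0.022. How much of the medians of these mitochondrial lists follows from brightness was not tested.

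**Figure D5:**
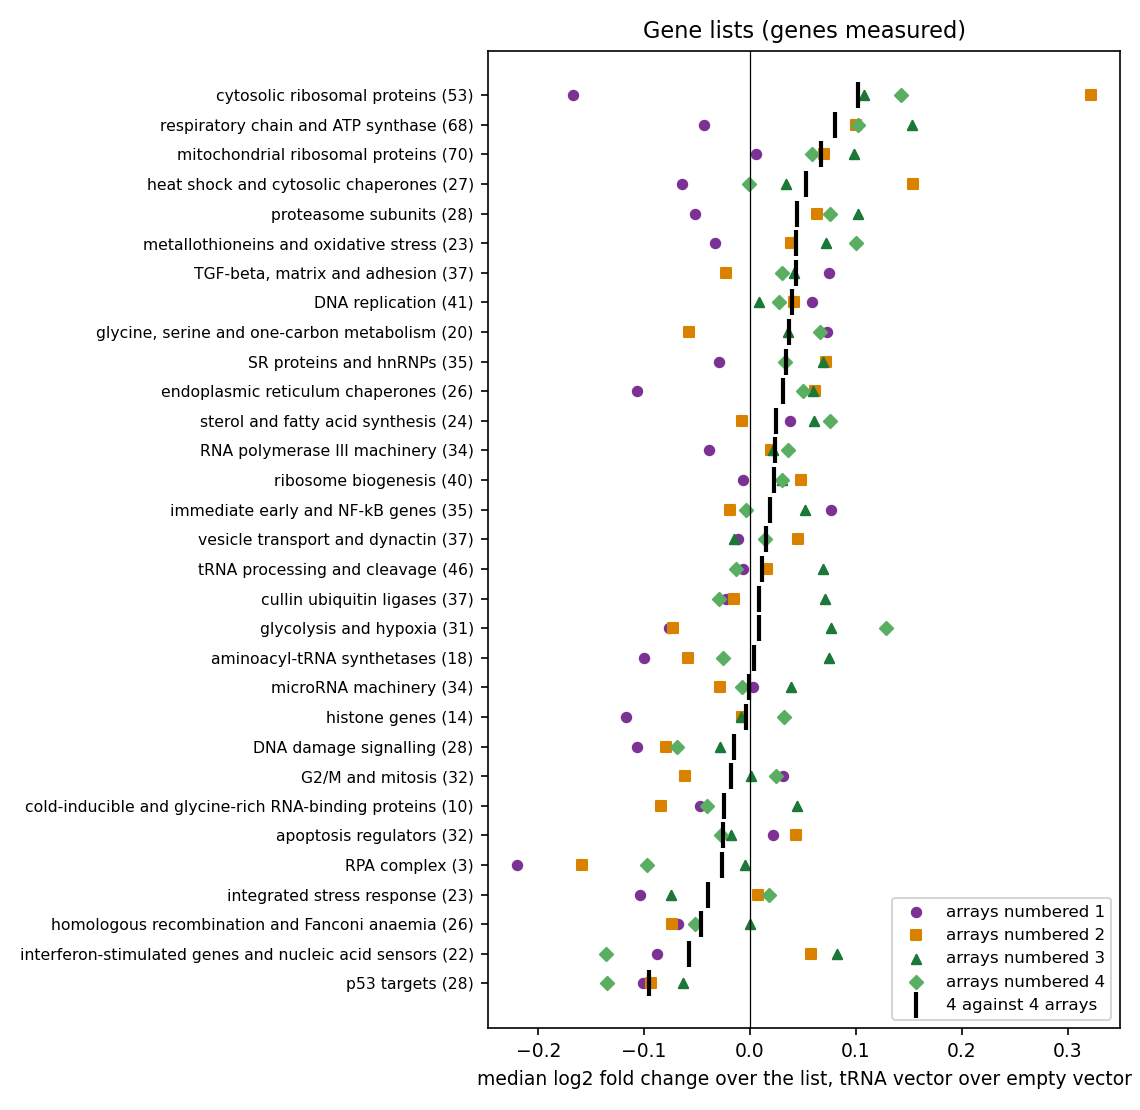
Median log2 fold change, tRNA vector over empty vector, of 31 gene lists (measured genes in brackets), from all 4 against 4 arrays (black bar) and from the arrays of each replicate number (coloured points). The bars run from -0.096 for p53 targets to 0.10 for cytosolic ribosomal proteins, whose point for the arrays numbered 1 lies at -0.17.

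Genes that make, charge and process tRNA were near 0 as groups. Of 34 genes of RNA polymerase III and its factors, the machinery that transcribes tRNA genes, 19 were higher (median 0.024). POLR2L, a subunit shared by the 3 nuclear polymerases, gave 0.23 ± 0.093, and TBP, the TATA-binding protein, stood at 2175 ± 307 with the tRNA vector and 2619 ± 336 with the empty vector (-0.27 ± 0.12). Both had groups that overlapped. Of 18 aminoacyl-tRNA synthetases, which join amino acids to tRNAs, 10 were higher (median 0.0033). CARS1, for cysteine, was the 1 member without overlap, at 10011 ± 334 with the tRNA vector and 11060.2 ± 450.2 with the empty vector (-0.14 ± 0.075), and NARS1, for asparagine, gave -0.17 ± 0.090. Of the 3 other CARS1 probe sets, 2 shared its sign. Of 46 genes of tRNA processing and cleavage 26 were higher (median 0.011). Among them were RNH1, the inhibitor of angiogenin and related ribonucleases, at 0.25 ± 0.12 and CTU2, which thiolates the wobble base, at 0.20 ± 0.11. The other RNH1 probe set had the opposite sign, and the mean over the RNH1 probe sets was -0.074. TSEN34, a subunit of the tRNA splicing endonuclease, was the member without overlap (0.16 ± 0.086), named after its value was seen.

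The microRNA machinery, through which CU1276 is reported to act, was balanced at 17 of 34 higher (median -0.00083). TUT7, a terminal uridylyltransferase, gave -0.28 ± 0.12, a sign that 3 of its 4 other probe sets shared. CNOT8, a deadenylase subunit, gave -0.16 ± 0.099. Enzymes of glycine, serine and one-carbon metabolism were higher in 12 of 20 (median 0.037). CTH, which forms cysteine, stood at 2491 ± 444 with the tRNA vector and 2993 ± 324 with the empty vector (-0.28 ± 0.14). ALAS1, which uses glycine to start haem synthesis, gave -0.15 ± 0.081 and was the 1 member without overlap.

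DNA damage and replication genes, the setting in which RPA acts, had small medians. Of 28 DNA damage signalling genes 14 were higher (median -0.015), and 0 had groups that did not overlap. ATM, the kinase activated by double-strand breaks, read 720.2, 497, 669 and 647 with the tRNA vector, against 711, 752, 945 and 829.8 with the empty vector (-0.36 ± 0.14), and 4 of 4 other probe sets agreed in sign. MRE11, a nuclease of the break sensor, gave -0.20 ± 0.11, a sign that neither of its 2 other probe sets shared. Homologous recombination and Fanconi anaemia genes were lower in 16 of 26 (median -0.046), with FANCL, the ubiquitin ligase of the Fanconi core complex, at -0.28 ± 0.15 and EME1, a nuclease subunit, at -0.20 ± 0.10. DNA replication genes were higher in 29 of 41 (median 0.039), with POLE2 at 0.13 ± 0.076 and POLD2 at 0.17 ± 0.11, both subunits of replicative polymerases. G2/M and mitosis genes were lower in 18 of 32 (median -0.018). AURKB, the kinase that corrects chromosome attachment, was the exception without overlap, at 4481, 4976, 3726 and 4076 with the tRNA vector, against 3649.6, 2999.8, 3083 and 2764 with the empty vector (0.46 ± 0.14), and SPC24, a kinetochore subunit, gave 0.42 ± 0.17. Histone genes were higher in 7 of 14 (median -0.0040). H2AC6, a histone H2A gene, stood at 392 ± 47.0 with the tRNA vector and 576 ± 90.7 with the empty vector (-0.55 ± 0.15), and H2AZ2, an H2A.Z variant, gave 0.19 ± 0.084, both without overlap. Of the 3 other H2AZ2 probe sets, 2 shared its sign.

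Stress lists gave no common direction. In the integrated stress response, which uncharged tRNAs can start through the kinase GCN2, 14 of 23 genes were lower (median -0.040). ATF4, its central transcription factor, read 20772, 23206, 22159.8 and 22322 with the tRNA vector, against 26159, 24309.6, 24681 and 25092 with the empty vector, below every empty vector array (-0.18 ± 0.066, limma adjusted p = 1). CEBPG, a partner of ATF4, was also without overlap (-0.093 ± 0.075), named after its value was seen, and VLDLR gave -0.47 ± 0.25 with overlap. Endoplasmic reticulum chaperones were higher in 14 of 26 (median 0.031). DERL1, of the export channel for misfolded proteins, gave 0.23 ± 0.076, a sign that 0 of its 3 other probe sets shared. The stress sensor ERN1 gave -0.29 ± 0.11, a sign that 1 of its 2 other probe sets shared, and 0.052 as the mean over its probe sets. Heat shock and cytosolic chaperones were higher in 16 of 27 (median 0.052) and in 11 of 27 after quantile normalization (median -0.021). HSPE1, the mitochondrial co-chaperonin, stood at 9645 ± 466 with the tRNA vector and 8166 ± 749 with the empty vector (0.24 ± 0.092), and HSPA2 gave -0.49 ± 0.21. Both had groups that did not overlap.

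Interferon-stimulated genes and sensors of nucleic acids passed the filter for 22 of 41 genes, and 12 of the 22 were lower (median -0.058). IRF1, a transcription factor of the interferon response, read 259, 189, 217 and 190.2 with the tRNA vector, against 315, 279.7, 333 and 316 with the empty vector (-0.55 ± 0.16), and ISG20, an exonuclease, gave -0.44 ± 0.21. Both lay below every empty vector array. Immediate early and NF-kB genes were higher in 19 of 35 (median 0.019). IER3, an early response gene, stood at 495 ± 25.3 with the tRNA vector and 599 ± 24.8 with the empty vector (-0.28 ± 0.11, no overlap), and MYC at 6243 ± 351 and, with the empty vector, 5691 ± 322 (0.13 ± 0.092, with overlap).

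Ribosome biogenesis factors were higher in 23 of 40 (median 0.022). BYSL, which matures the small subunit, gave -0.26 ± 0.083 without overlap, as did NOP58 (-0.19 ± 0.074), named after its value was seen, and fibrillarin, FBL, on the higher side (0.13 ± 0.058). IMP4, another factor of the small subunit, gave 0.22 ± 0.087. SR proteins and hnRNPs, which bind pre-mRNA, were higher in 25 of 35 (median 0.034) and in 16 of 35 after quantile normalization (median -0.015), with HNRNPA3 at -0.19 ± 0.079 and HNRNPAB at 0.17 ± 0.079. Cold-inducible and glycine-rich RNA-binding proteins, a list drawn up with CIRBP known to be low, were higher in 5 of 10 (median -0.024). Proteasome subunits were higher in 24 of 28 (median 0.044) and in 18 of 28 after quantile normalization (median 0.0086). How much of this follows from their brightness was not tested. PSMA3 gave 0.14 ± 0.066 and PSMB7 0.12 ± 0.066. The other PSMA3 probe set had the opposite sign, and the mean over the PSMA3 probe sets was -0.12.

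Cullin ubiquitin ligases, a list drawn up with CUL4B known, were higher in 20 of 37 (median 0.0086). FBXW7, which targets cyclin E and MYC for breakdown, read 731, 471, 586 and 731 with the tRNA vector, against 757, 783, 763 and 1349 with the empty vector (-0.51 ± 0.20). The groups did not overlap, and empty vector array 4 stood far above the rest. Of the 2 other FBXW7 probe sets, 1 shared the sign. NEDD8, the modifier of cullins, gave -0.34 ± 0.14 with overlap. Sterol and fatty acid genes were higher in 15 of 24 (median 0.025). FDPS, farnesyl diphosphate synthase, stood at 4044 ± 377 with the tRNA vector and 4804 ± 112 with the empty vector (-0.25 ± 0.077, no overlap), while SREBF2, the regulator of sterol synthesis, gave 0.36 ± 0.17.

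Glycolysis and hypoxia genes were higher in 16 of 31 (median 0.0082). VEGFA, an angiogenic growth factor, read 2036, 1662, 1937 and 2014 with the tRNA vector, against 2466, 2597, 2161 and 2568 with the empty vector (-0.36 ± 0.095, no overlap), but 0 of its 3 other probe sets shared the sign, and KDM3A gave -0.17 ± 0.077. Genes of TGF-beta, matrix and adhesion were higher in 24 of 37 (median 0.043). COL5A1, a fibrillar collagen, read 235, 248, 220.4 and 247 with the tRNA vector, against 143, 176, 111 and 189 with the empty vector (0.65 ± 0.22, no overlap), and ITGA5, the fibronectin receptor subunit, gave 0.41 ± 0.17. Metallothioneins and oxidative stress genes were higher in 15 of 23 (median 0.044), with MT1G at -0.51 ± 0.26 and PRDX1 at 0.16 ± 0.092. Apoptosis regulators were lower in 18 of 32 (median -0.026). CASP6, an executioner caspase, stood at 384 ± 89.7 with the tRNA vector and 533 ± 47.1 with the empty vector (-0.50 ± 0.17, no overlap), and BCL2L12 gave 0.40 ± 0.17.

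Both vectors share their 4 control arrays, so the hairpin values are not independent of those above and are only set beside them. Against the empty vector, RPA1 differed by -0.21 ± 0.082 with the tRNA vector, while the hairpin vector gave -0.22 ± 0.082. For DTX2 these values were 2.70 and 1.48, for TBL1X 0.43 and 0.060, and for CUTA 0.29 and 0.067. Over the 12 genes highest with the tRNA vector, the hairpin vector gave 0.024 to 1.48, and over the 12 lowest -0.33 to 0.026. RAB13 differed by -0.60 with the tRNA vector, and the hairpin vector gave -0.33, while CIRBP differed by -0.40 and, with the hairpin vector, by 0.026. The p53 target median was -0.096 with the tRNA vector, where the hairpin vector gave 0.029, and that of cytosolic ribosomal proteins 0.10 and, with the hairpin vector, -0.033. When the tRNA vector was tested against the hairpin vector directly, the smallest limma adjusted p among the 24 genes was 0.530.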

How the data were processed

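Total RNA of 12 samples of 293T cells was hybridised to 1-colour Affymetrix arrays of 54675 probe sets. The deposited values are MAS5 signals, linear intensities per probe set, per the submitters' processing notes. The MAS5 version is not given in the sources used here. Probe sets were named from the platform annotation, which gave 1 symbol to 41097, several to 1801 and none to 11777, counting 62 control probe sets among these, and RefSeq tables were used for names and for sequences near gene starts.

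Intensities were taken as log2, and 21845 probe sets under the 40th percentile of mean log2 signal were left out. The 32768 others were fitted with limma 3.58.1 in R 4.3.3 (3 group means over 12 arrays, eBayes with an intensity trend), with Benjamini-Hochberg adjustment over all of them. The contrast was the tRNA vector minus the empty vector. The script was tested on simulated data. Single values were also tested by the exact two-sided permutation test of 4 against 4 arrays, whose smallest p is 0.0286. A gene was represented by its brightest tested probe set with 1 symbol.

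Named genes were RPA1 to RPA3, the 12 highest and 12 lowest by moderated t, genes with several probe sets on 1 side, probe sets called under a block, and leading members of each list. The members, lists and blocks were chosen with earlier results of these data known. The number of arrays limits the precision. The labels call the samples biological replicates and say nothing of separate cultures, so p-values measure the spread between these samples. A comparison of genes by the glycine share of their proteins was planned and not run, since no protein table was used here.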

Additional observations from a re-analysis of the deposited data

Results flagged for a closer look

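Within a group of 4 arrays, 12 of 252 groups checked held 1 array whose distance from the nearest other exceeded the 95% critical value of Dixon's test. Chance flags about 1 in 20 groups, or 5%, so this number is near the background. Among single genes, RPS9 read 17802 in tRNA vector array 1, against 19763 to 20169.6 in the other 3. In the empty vector group, RPA3 read 14209.8 in array 1, against 10839.8 to 11336 in the others, and GHET1 read 65.9 in array 2, against 82.8 to 86.4. MRPL23 read 5922 in empty vector array 3, against 4978 to 5110.0, and FBXW7 read 1349 in empty vector array 4, against 757 to 783.

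The other flags were medians of gene lists per array, on a log2 scale centred on each gene's mean. In the tRNA vector group, G2/M and mitosis genes stood at 0.073 in array 1, ribosome biogenesis factors at 0.084 in array 3 and RNA polymerase III genes at -0.034 in array 4. In the empty vector group, respiratory chain genes stood at 0.099 and histone genes at 0.16 in array 1, immediate early and NF-kB genes at 0.14 in array 2, and heat shock and cytosolic chaperones at -0.053 in array 4.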

How the results depend on the processing

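limma called 0 probe sets under 17 of 18 alternative settings and 4 with the control RNA block. The count at an unadjusted p under 0.05 was 1238 of 32768 probe sets in the fit reported (3.78%). It was 2240 of 54613 with no filter on dim probe sets and 823 of 21845 with a stricter filter, settings that change the number tested. Over the same 32768 probe sets it was 2524 with the control RNA block. Without the arrays numbered 1, a setting chosen after seeing the data, it was 1917 of 32768. With the replicate block it was 2546 of 32768, and limma then called 0. Arrays of the same number deviated together at r = 0.284, 0.136, 0.0987 and 0.119, and those numbered 1 and 2 correlated best with their own number and those numbered 3 and 4 with each other's. Not every pair passed 0.1, so the fit without the block was kept as the one reported, although the control RNA levels also follow the number. The 0.1 mark was not part of the planned design. Spread shared by arrays of the same number therefore stays in the standard errors and limma adjusted p reported without the block. The count of probe sets without overlap, 851 of 32768 in the fit reported, was 1456 of 54613 with no filter. It was 3711 of 32768 without the arrays numbered 1 and ranged over 1460 to 2250 with 1 array left out, since fewer arrays overlap less. RPA1 stayed below 0 under 19 alternatives, from -0.25 to -0.022, with a smallest limma adjusted p of 0.391. All of these but the average over its probe sets used the brightest probe set. Its groups did not overlap there, so leaving out arrays could not change the sign. The filters and blocks left the log2 fold change as it was, so the steady sign is no separate support. For the other genes too, filters, blocks and the fit without an intensity trend left the log2 fold change as it was. Many of these genes were also picked by this same contrast, so a count of sign changes is no measure of stability. Of 1809 single-gene values 20 changed sign. These were RPA2 (-0.059 to 0.051 with 1 array left out, above 0 in 4 cases at 0.0012, 0.0024, 0.017 and 0.051), RPA3 (0.038 without the arrays numbered 1, -0.069 to 0.061 with 1 array left out), NSD3 (0.0047 after quantile normalization, -0.12 to 0.099 with 1 array left out, above 0 in 5 cases), the dimmer RPA1 probe sets (-0.072 to 0.14, with -0.011 between, and -0.017 to 0.22 with 1 array left out) and, averaged over their probe sets, MRE11 (0.081), RNH1 (-0.074), DERL1 (-0.035), ERN1 (0.052) and PSMA3 (-0.12); the cause was not tested. Of 702 list medians 684 moved by less than the spread between replicates. The blocks could not move any of them, so this count is no measure of stability either. The p53 target median ranged from -0.15 to -0.087. The median of markers of T and myeloid cells gave no value under the stricter filter.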
